A study of Sus scrofa with 6 samples.

Results

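Lipocalin 2 (*LCN2*) and genes of iron uptake, storage, export and control were followed in porcine granulosa cells (GCs) that overexpressed retinol binding protein 4 (*RBP4*). The members were fixed by name, namely *LCN2*, the ferritin chains *FTL* and *FTH1*, the iron transporters *TFRC*, *SLC40A1* and *SLC11A2*, the haem-degrading enzyme *HMOX1*, the iron sensors *IREB2* and *ACO1*, and the ferritin receptor *NCOA4*. Of these 10 names, 7 were found among the 17950 genes of the deposited table, and 6 of the 7 had a mean of at least 1 FPKM (fragments per kilobase of transcript, scaled to the mapped fragments of a library). *FTH1*, *SLC11A2* and *HMOX1* could not be matched to a row and were not analysed here. *LCN2* was chosen by its FPKM values, since it is in the study's table of genes that changed between the groups, so its difference is given as a description. The other members were chosen for their roles.

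GCs are the somatic cells that surround the oocyte, and these were primary cells taken from follicles of pre-pubertal Landrace gilts and cultured. The pLVX-*RBP4* group was infected with a lentivirus that carried porcine *RBP4* in the pLVX-IRES-ZsGreen vector, and the CTRL group with the same vector without the insert, so both groups carried virus and the green fluorescent reporter. RNA of 3 libraries per group was sequenced after 72 h. The deposited table holds 1 FPKM value per gene and group, made by the authors from the 3 libraries, and the number of animals behind a library is not given in the sources used here. Each value below is therefore the authors' value for a group. The spread between libraries is not known from it, and no SD or test could be computed, so "higher" and "lower" compare 2 group values and nothing more. By the study's sequencing statistics each pLVX-*RBP4* library had more mapped reads, and a larger mapped share, than each CTRL library, and the part of depth in the differences below was not tested. *RBP4* itself had 1.10 FPKM in CTRL cells and 92.3 FPKM in pLVX-*RBP4* cells, which goes with the labels.

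Iron enters most cells bound to transferrin through the transferrin receptor, is stored inside ferritin shells built of heavy and light chains, and leaves through ferroportin. When iron is scarce, iron regulatory proteins bind hairpins in the messenger RNAs of these genes, which blocks the translation of ferritin and stabilises the message of the transferrin receptor. The control of ferritin by these proteins therefore acts on translation, while that of the transferrin receptor acts on the amount of mRNA. *LCN2* encodes a secreted protein that binds siderophores, the small iron carriers of bacteria, and is known as a product of neutrophils and of stimulated epithelia. It belongs to the lipocalins, small carrier proteins with a barrel-shaped pocket, and RBP4 is a lipocalin too.

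The study measured *LCN2* also by RT-qPCR with a designed primer pair, which is shown as the study gives it. Among its most downregulated genes, which included *LCN2*, the study reports that RT-qPCR failed to bear out only *CD248*. Both are written 5′ to 3′, and no part is marked.
LCN2 forward primer: aggccggtttaagatgtacac
LCN2 reverse primer: atccagttgtcacagagctg
The forward primer has 21 bases with 47.6% G and C, and the reverse primer 20 bases with 50%. Where they lie in the gene was not determined here. In the study's tables *LCN2* (ENSSSCG00000005638) spans chromosome 1, from 302600678 to 302605199, on Sscrofa10.2. No other member has a position there.

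*LCN2* had 69.8 FPKM in CTRL cells and 36.2 FPKM in pLVX-*RBP4* cells. The CTRL value was 1.93 times the pLVX-*RBP4* value, a change of -48.2%, and the difference of log2(FPKM + 1) between the groups was -0.93. All differences on the log2 scale below are of this kind, pLVX-*RBP4* minus CTRL, and the added 1 makes them smaller for weakly expressed genes. Counts of genes past 1.5-fold are likewise taken on FPKM + 1, unless another pseudocount is named. By level *LCN2* was gene number 1508 of the table in CTRL cells and 2782 in pLVX-*RBP4* cells. Within the 7 members it moved from place 2 to place 4, below *NCOA4* and *TFRC*. In RNA of a whole culture, fewer cells that express a gene and less RNA per cell cannot be told apart.

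The difference of *LCN2* was set beside those of all 12382 genes with a mean of at least 1 FPKM, whose median was 0.0014. At least 1.5-fold lower values in pLVX-*RBP4* cells were found for 1.28% of these genes, and for 0.534% of the 5810 genes with a mean of 10 to 100 FPKM, the range that holds *LCN2*. Of all 12382 genes, 64 (0.517%), *LCN2* included, had a log2 difference at or below that of *LCN2*. Of the 6902 genes with a mean of at least 10 FPKM, 11 others did, and 35 were higher by at least that size. Among these 11, 5 were listed at 0 in pLVX-*RBP4* cells, and 6 were above 0 in both groups. Those at 0 included the small noncoding RNAs *snoU13*, *U5*, *SNORA26* and *SNORA16*. The only one of those 6 with a symbol was *HDAC9*, a histone deacetylase, with 54.8 FPKM in CTRL cells and 4.32 FPKM in pLVX-*RBP4* cells. These ranks use the contrast for which *LCN2* was chosen and support nothing further.

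**Figure D1:**
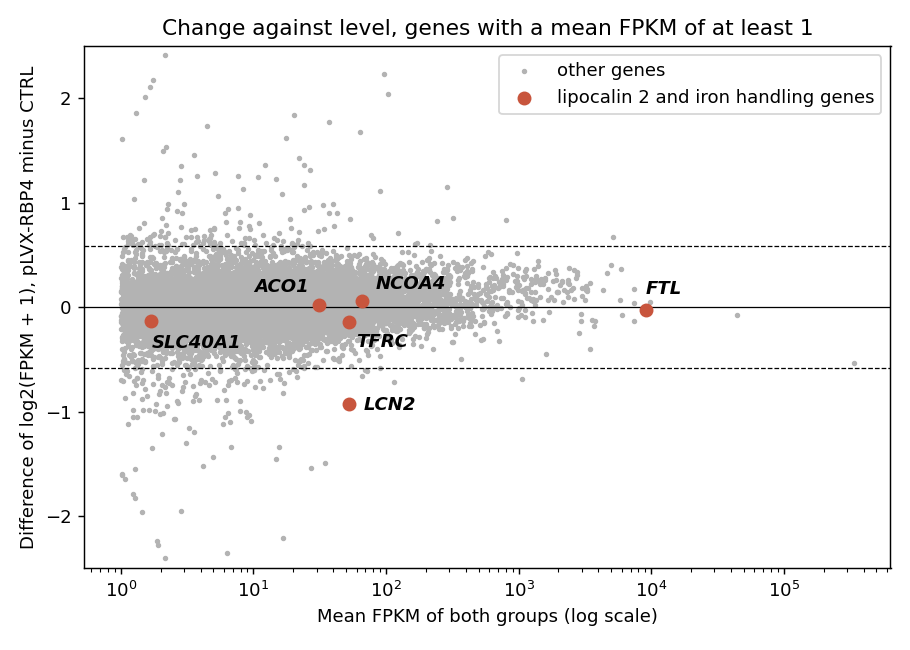
Difference of log2(FPKM + 1), pLVX-RBP4 minus CTRL, against the mean FPKM of both groups on a log scale, for genes with a mean of at least 1 FPKM; red points are 6 members, grey points other genes, and dashed lines mark 1.5-fold. LCN2 lies at -0.93, and the other 5 lie between -0.14 and 0.055; 42 genes beyond 2.5 in either direction are not drawn.

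The genes most like *LCN2* in their difference were looked for among 4669 other genes with a symbol and a mean of at least 10 FPKM. With 2 group values, likeness here means only a close log2 difference. The 5 nearest were *MAP1B* (-0.61), *CASP10* (-0.61), *PRRC2C* (-0.57), *CRTC3* (-0.57) and *RAB3B* (-0.55). All 5 lay above *LCN2*, and the nearest, *MAP1B*, a microtubule-associated protein, was 0.32 away on the log2 scale. *MAP1B* had 84.2 FPKM in CTRL cells and 55.0 FPKM in pLVX-*RBP4* cells. *CASP10*, an initiator caspase, had 12.4 and 7.83 FPKM. *MAP1B*, *PRRC2C*, *CRTC3* and *RAB3B* are, like *LCN2*, among the study's most downregulated genes. The search used the same contrast, and part of the symbols came from the study's tables, so their closeness supports nothing further.

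Ferritin light chain dominated the group by level. *FTL* (ENSSSCG00000003153) had 9218 FPKM in CTRL cells and 9017 FPKM in pLVX-*RBP4* cells, a log2 difference of -0.03 and a change of -2.18%. By level it was gene number 4 in CTRL cells and 6 in pLVX-*RBP4* cells, with 0.816% and 0.844% of the summed FPKM. Among the 7 members it made up 97.6% of the summed FPKM in CTRL cells and 98.0% in pLVX-*RBP4* cells. In FPKM its difference (-200.5) exceeded that of *LCN2* (-33.7), although as a ratio it was far smaller. Ferritin genes have processed copies in mammalian genomes, and the deposited values do not show how the reads of such copies were assigned.

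*NCOA4* (ENSSSCG00000010399), the receptor that delivers ferritin to autophagosomes so that its iron is released, had 64.3 FPKM in CTRL cells and 66.8 FPKM in pLVX-*RBP4* cells. The log2 difference was 0.06, a change of 3.95%. In both groups it was gene number 1622 by level. The *LCN2* value was 1.09 times that of *NCOA4* in CTRL cells and 0.542 times in pLVX-*RBP4* cells.

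**Figure D2:**
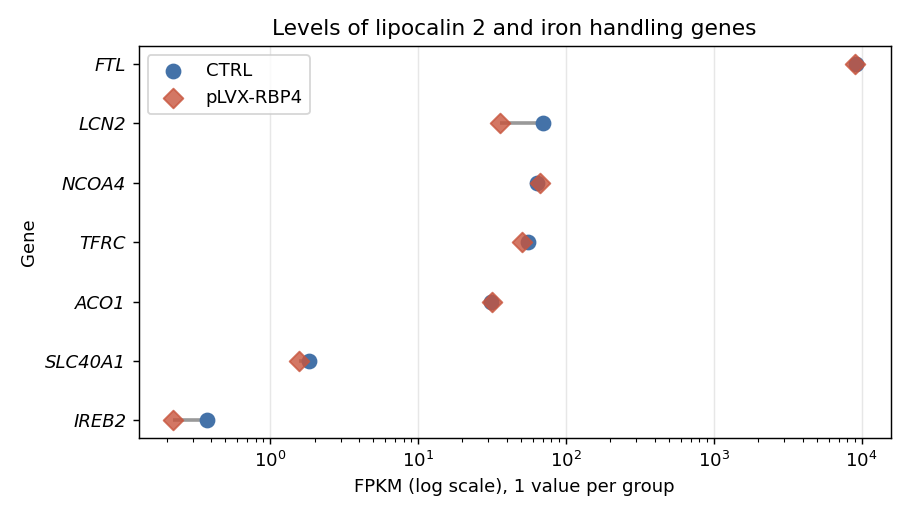
FPKM of each of the 7 members on a log scale, with 1 value per group: blue circles are CTRL, red diamonds pLVX-RBP4, and grey lines join the 2 values of a gene. FTL lies at 9218 and 9017, LCN2 moves from 69.8 to 36.2, and IREB2 is below 1 in both groups.

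Uptake and export were represented by a pair of transporters. *TFRC* (ENSSSCG00000011848), the transferrin receptor, had 55.5 FPKM in CTRL cells and 50.4 FPKM in pLVX-*RBP4* cells, a log2 difference of -0.14 and a change of -9.33%. A difference of this size or more, in either direction, was found for 47.2% of the 12382 genes. *SLC40A1* (ENSSSCG00000027157), which encodes ferroportin, the known exporter of iron from cells, was weakly expressed, with 1.82 FPKM and 1.58 FPKM. Its log2 difference was -0.13, and 50.6% of the genes differed at least as much. The uptake gene exceeded the export gene by 30.5 times in CTRL cells and 31.9 times in pLVX-*RBP4* cells. The FPKM ratio of *FTL* to *TFRC*, a storage gene to an uptake gene under opposite control by the iron regulatory proteins, was 166 in CTRL cells and 179 in pLVX-*RBP4* cells.

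Both iron sensors were found, at very different levels. *ACO1* (ENSSSCG00000023807), which encodes the cytosolic aconitase that turns into iron regulatory protein 1 when it loses its iron-sulfur cluster, had 31.2 FPKM in CTRL cells and 31.6 FPKM in pLVX-*RBP4* cells, a log2 difference of 0.02. *IREB2* (ENSSSCG00000001756), which encodes iron regulatory protein 2, had 0.376 and 0.221 FPKM. The *IREB2* values are below the limit of 1 FPKM used for counts, and their log2 difference was -0.17, or -0.77 as a log2 ratio with nothing added. Between the sensors, *ACO1* was 82.8 times as high as *IREB2* in CTRL cells and 143 times in pLVX-*RBP4* cells. *FBXL5*, the iron-sensing ubiquitin ligase subunit that marks iron regulatory proteins for degradation, had 33.4 FPKM in both groups. It was named after its values were seen.

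Of the 6 members with a mean of at least 1 FPKM, 2 were higher and 4 lower with *RBP4*, against 50.2% higher and 49.8% lower among all 12382 genes. The 6 had a median log2 difference of -0.08. Only *LCN2* was past 1.5-fold, a size reached by 2.77% of all genes (1.49% higher and 1.28% lower), and the rule had used this contrast for *LCN2*. The other 5 lay between -0.14 (*TFRC*) and 0.055 (*NCOA4*), with a median of -0.03, and none of them reached a log2 difference of 0.322 in either direction, a size that 12.4% of all genes had. Neighbours by level, such as *LCN2*, *NCOA4* and *TFRC* in CTRL cells, cannot be said to differ, since their spread is not known.

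The direction of the small differences depended on the scale. The summed FPKM was 1129670 in CTRL cells and 1068960 in pLVX-*RBP4* cells, of which the single highest gene held 399775 and 276137. With both groups brought to a common sum, *FTL* changed from lower to higher (0.05), while *TFRC* (-0.06) and *SLC40A1* (-0.08) stayed lower. With a common sum over all genes but the highest, which moved the median of all genes to -0.10, *ACO1* and *NCOA4* changed from higher to lower (-0.10 and -0.06), and both still lay above that median. *ACO1* was also lower with a common upper quartile. Of the 6 members counted, 3 were thus higher with a common sum, 1 with a common upper quartile and 0 with a common sum without the highest gene. *LCN2* was lower in all 7 alternatives computed for it, between -1.05 and -0.85. *TFRC*, *SLC40A1* and *IREB2* were also lower in all 7. Other pseudocounts cannot change a sign, and a scaling multiplies all genes of a group by the same factor. A kept sign is therefore no test of these differences, least of all for one of the size of *LCN2*. Over all genes, 184 were at least 1.5-fold higher and 159 at least 1.5-fold lower as deposited, 244 and 127 with a common sum, and 116 and 229 with a common sum without the highest gene.

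**Figure D3:**
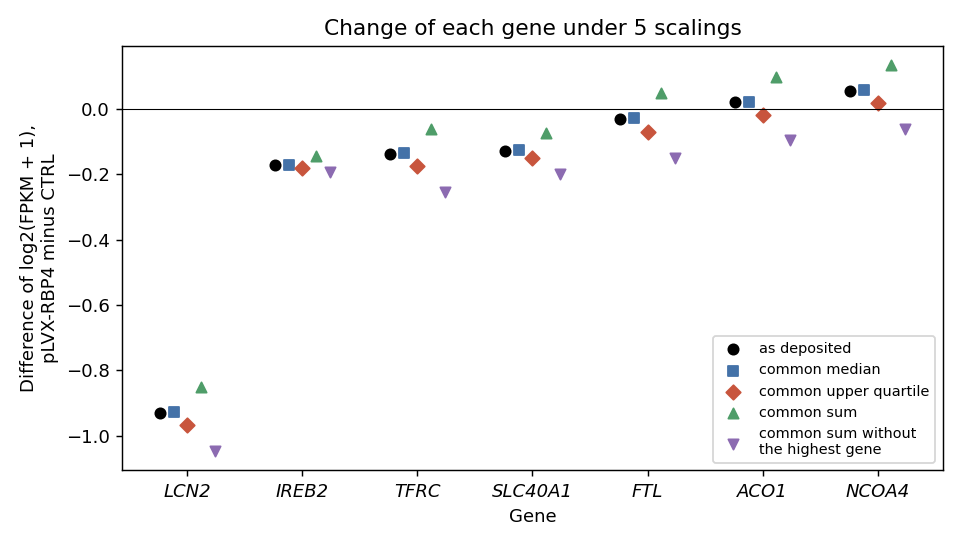
Difference of log2(FPKM + 1), pLVX-RBP4 minus CTRL, of each of the 7 members as deposited and under other scalings, 1 point per gene and scaling. LCN2 lies between -1.05 and -0.85 throughout, whereas FTL, ACO1 and NCOA4 lie on both sides of 0.

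The receptors and relatives of lipocalin 2 were compared next. Of 20 names, 9 were found and 6 had a mean of at least 1 FPKM. The introduced *RBP4* was the only one past a log2 difference of 0.322, a size that 12.4% of all genes had. Without *RBP4*, 2 of 5 were higher, against 50.2% of all genes, with log2 differences from -0.18 to 0.11. *SLC22A17*, which encodes a cell surface receptor for lipocalin 2, had 71.5 FPKM in CTRL cells and 71.3 FPKM in pLVX-*RBP4* cells, with a log2 difference of -0.0038. It was thus near the level of *LCN2* in CTRL cells and above it in pLVX-*RBP4* cells. The lipocalins that were found, other than *RBP4* and *LCN2*, were weakly expressed. Those not matched included *PTGDS*, *ORM1* and *PAEP*. *APOD* had 2.97 and 3.27 FPKM, the salivary lipocalin *SAL1* 2.89 and 3.20 FPKM, and *C8G*, the lipocalin subunit of complement component 8, 2.02 and 1.67 FPKM. *APOD* and *SAL1* were named after their values were seen.

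Other genes of iron uptake, transport, storage and control were taken from a list of 36 names, of which 22 were found and 14 had a mean of at least 1 FPKM. As deposited, 7 were higher and 7 lower, against 50.2% higher among all genes. The median log2 difference was -0.0026, with a range from -0.29 to 0.37. Past 0.322 was 1 of 14, *HEPHL1*, against 12.4% of all genes. *STEAP1*, a metalloreductase family member named after its values were seen, lay just inside it (0.321). The most abundant was *PCBP2*, an RNA-binding protein that also serves as an iron chaperone, with 314 FPKM in CTRL cells and 295 FPKM in pLVX-*RBP4* cells. *HEPHL1*, a copper-dependent ferroxidase, had the highest positive difference (0.37) at a low level, 0.972 and 1.56 FPKM. *MELTF*, the membrane-bound transferrin homologue melanotransferrin, had the most negative one (-0.29), with 19.9 and 16.2 FPKM. The limit on the mean set both extremes. *HEPHL1* was below 1 FPKM in CTRL cells and passed through its higher value, whereas *PCBP3*, a relative of *PCBP2* with a more negative difference (-0.65), had 1.28 and 0.451 FPKM and did not pass. *BMP6*, a growth factor that drives hepcidin in the liver, had 61.2 and 66.0 FPKM. *TF*, the gene of transferrin itself, was hardly expressed, with 0.124 and 0.0149 FPKM. *PCBP3*, *BMP6* and *TF* were named after their values were seen.

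Haem genes were mostly close to 0 in their difference. Of 26 names, 21 were found and 19 had a mean of at least 1 FPKM, of which 11 were higher and 8 lower, with a median of 0.02. Among all genes 50.2% were higher. *PGRMC1*, a haem-binding membrane protein, was the most abundant, with 171 FPKM in CTRL cells and 181 FPKM in pLVX-*RBP4* cells. *UROS*, an enzyme of haem synthesis, had 13.5 and 16.7 FPKM (0.29). *BACH1*, a haem-sensing repressor of genes such as those of haem oxygenase and ferritin, had 11.9 and 9.24 FPKM (-0.33). It was the only gene of the 19 past 0.322, a size that 12.4% of all genes had. *HMOX2*, the constitutive haem oxygenase, which was named after its values were seen, had 53.0 and 52.0 FPKM.

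Among the genes that assemble iron-sulfur clusters, the cofactor whose loss turns *ACO1* into an iron sensor, 22 of 38 names were found, and all 22 had a mean of at least 1 FPKM. As deposited 16 were higher and 6 lower, with a median of 0.07, against 50.2% higher among all genes. With a common sum 19 of 22 were higher, and with a common sum without the highest gene 8 of 22, while the share of all genes that were higher was 64.9% and 30.1%. *HSPA9*, the mitochondrial chaperone of cluster transfer, was the most abundant, with 171 and 188 FPKM. Past 0.322 in either direction were 3 of 22 (13.6%), near the 12.4% of all genes. *NFU1*, a late carrier of clusters, had 26.6 FPKM in CTRL cells and 38.5 FPKM in pLVX-*RBP4* cells (0.52), and *ISCA2*, another late factor, named after its values were seen, had 4.95 and 6.75 FPKM (0.38). *NUBPL*, needed for the clusters of respiratory complex I, had 3.82 and 2.68 FPKM (-0.39).

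Genes of ferroptosis, the iron-dependent form of cell death, and of the defence against lipid peroxides were found for 17 of 24 names, of which 14 had a mean of at least 1 FPKM. As deposited 10 were higher and 4 lower, with a median of 0.05, against 50.2% higher among all genes. With a common sum without the highest gene 3 of 14 were higher, against 30.1% of all genes. *ACSL4*, which loads membranes with oxidisable fatty acids, had 969 FPKM in CTRL cells and 1011 FPKM in pLVX-*RBP4* cells. *DHODH*, a mitochondrial enzyme of pyrimidine synthesis that also protects against lipid peroxides, had 3.93 and 5.41 FPKM (0.38). It was the only one of the 14 past 0.322, against 12.4% of all genes. *TXNRD1*, a thioredoxin reductase, had 441 and 409.6 FPKM (-0.11). *GPX4*, the peroxidase at the centre of this defence, was named after its values were seen and had 148 and 157 FPKM.

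The split into higher and lower moved with the scale in these lists as well. From a common sum without the highest gene to a common sum over all genes, the share of all 12382 genes that were higher went from 30.1% to 64.9%. The number higher went from 3 to 8 of 14 other iron genes, from 7 to 16 of 19 haem genes and from 3 to 13 of 14 ferroptosis genes. These counts moved with the shift of all genes and are not read as a trait of the lists.

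**Figure D4:**
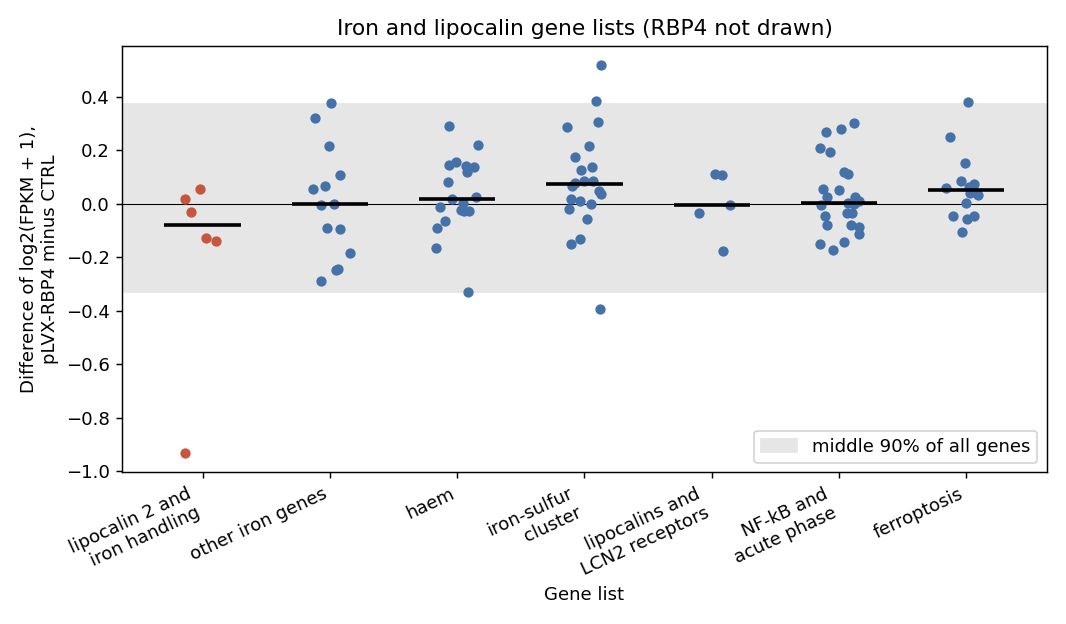
Difference of log2(FPKM + 1), pLVX-RBP4 minus CTRL, of the genes with a mean of at least 1 FPKM in each list; points are genes, black bars the medians, the grey band the middle 90% of all genes (from -0.33 to 0.37), and RBP4 is not drawn. LCN2 lies at -0.93, and the next lowest gene of the 7 lists, NUBPL, at -0.39.

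*LCN2* is known as a target of NF-kB and of factors of the acute phase response, and a list of such genes was compared with it. Of 42 names 29 were found and 25 had a mean of at least 1 FPKM. Of the 25, 13 were higher and 12 lower, against 50.2% higher among all genes, with a median log2 difference of 0.0012. The range was from -0.17 to 0.30, and 0 were past 0.322, a size that 12.4% of all genes had. With a common sum without the highest gene 6 of the 25 were higher, and with a common sum 18. The shares of all genes were 30.1% and 64.9%. *CCL2*, a chemokine, was the most abundant, with 613 FPKM in CTRL cells and 744 FPKM in pLVX-*RBP4* cells (0.28). *NFKB1*, an NF-kB subunit, had 142 and 176 FPKM (0.30). *BCL3*, a nuclear cofactor of NF-kB, had 7.78 and 6.78 FPKM (-0.17). *NFKBIZ*, a nuclear cofactor known to be needed for the induction of *LCN2*, was named after its values were seen and had 24.9 and 24.3 FPKM (-0.04).

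Markers of the cell types that could be in the culture were read beside *LCN2*, and the single markers given were picked after their values were seen. Of 18 GC markers 10 were found, with a summed level of 896 FPKM in CTRL cells and 889.8 FPKM in pLVX-*RBP4* cells. Most of this sum was *CYP11A1*, a steroidogenic enzyme, with 673 and 669 FPKM. The 8 names not matched included *FOXL2*, *CYP19A1* and *AMH*. *FSHR* had 9.99 and 8.47 FPKM, *INHA* 28.6 and 27.5 FPKM, and *ESR2* 0.0331 and 0.0718 FPKM. The largest difference among them was that of follistatin, *FST*, with 20.5 and 24.7 FPKM (0.26). Of 12 neutrophil markers 7 were found, with a summed level of 47.2 and 82.3 FPKM. Of the defining ones, *MPO* was listed at 0 in CTRL cells and had 0.0189 FPKM in pLVX-*RBP4* cells, *ELANE* had 0.242 and 0.109 FPKM, and *LTF* had 0.0626 and 0.0582 FPKM. Nearly all of that sum came from the calcium-binding proteins *S100A12* (38.2 and 69.3 FPKM) and *S100A8* (8.63 and 12.7 FPKM). *S100A12* is among the study's most upregulated genes, a choice made on this same contrast.

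Macrophage and leukocyte markers summed to 58.1 FPKM in CTRL cells and 67.2 FPKM in pLVX-*RBP4* cells, with 10 of 13 names found. Of this sum *CD14* held 42.9 and 48.9 FPKM, and the general leukocyte marker *PTPRC* had 0.229 and 0.166 FPKM. Of the 6 with a mean of at least 1 FPKM, *FCER1G* was the only one past 0.322, a size that 12.4% of all genes had. *FCER1G* had 0.734 and 1.71 FPKM, so it passed the limit on the mean only through its higher value. Theca markers summed to 203 and 184 FPKM (6 of 7 found), nearly all of it *ANPEP*, with 191 and 172 FPKM. The 3 with a mean of at least 1 FPKM were all lower as deposited, against 49.8% of all genes, and 2 of 3 with a common sum. Below that limit, *LHCGR* (0.209 and 0.0937 FPKM) and *GLI1* (0.495 and 0.350 FPKM) were lower. *INSL3* was listed at 0 in CTRL cells and had 0.292 FPKM in pLVX-*RBP4* cells. Erythroid markers summed to 13.8 and 14.3 FPKM (4 of 13 found), nearly all of it the erythropoietin receptor *EPOR*, with 13.6 and 14.2 FPKM, while *ALAS2* and *GATA1* were listed at 0 in CTRL cells and no haemoglobin gene was matched. Endothelial markers summed to 20.4 and 19.6 FPKM (4 of 8 found), mostly *PECAM1*, with 16.3 and 16.0 FPKM. Epithelial markers summed to 13.3 and 13.5 FPKM (3 of 8 found), nearly all of it the keratin *KRT8*, with 13.0 and 13.2 FPKM, while *EPCAM* had 0.325 and 0.199 FPKM. Whether any of these cell types had a part in the difference of *LCN2* was not tested.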

How the data were processed

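RNA from porcine GCs of the pLVX-*RBP4* and CTRL groups, 3 libraries each, was sequenced with paired ends. The authors aligned filtered reads to Sscrofa10.2 with TopHat2 and used Cuffdiff of Cufflinks, whose versions and annotation release are not given in the sources used here. The deposited values are FPKM, computed by the authors, with 1 value per gene and group. Both columns were used, and 0 were left out.

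The study's tables gave symbols for 764 genes, and Ensembl names for another 9993. Log2(FPKM + 1) was computed, and genes with a mean of at least 1 FPKM were counted. With 1 value per group, no test, SD or SE was possible. The members and lists were chosen with earlier results of these data known. Some lists hold both an older and a newer name of a gene, such as *NARFL* and *CIAO3*. Their counts of names are therefore larger than the counts of genes sought. Beside the members, the rule named in each list other than the marker lists the most abundant gene, the highest and the most negative log2 difference and genes past 1.5-fold, and then the 5 nearest to *LCN2*. Other genes, single markers included, were named after their values were seen. Alternatives were other pseudocounts, filters, scalings, the mean of a list and another fold. Python 3.11.15, numpy 2.4.6 and pandas 2.3.3 were used.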

Additional observations from a re-analysis of the deposited data

How the results depend on the processing

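No paired analysis was possible because the deposited table holds 1 value per group, and leaving out single replicates was not run for the same reason. A log2 value was counted as moved from a change of 0.1, and a count or share from 1.5 times. The log2 difference of *LCN2* moved only with a common sum without the highest gene, to -1.05. When lists were averaged, the mean of the members was -0.19 and that of the lipocalin list 0.91, which *RBP4* sets. The number of members that were higher was 1 with a common upper quartile and 0 with a common sum without the highest gene. That sum, which lowers each pLVX-*RBP4* value by the same factor, also moved the list medians to -0.12 (other iron genes), -0.084 (haem), -0.043 (iron-sulfur cluster), -0.053 (lipocalins), -0.11 (NF-kB and acute phase) and -0.067 (ferroptosis). The share of genes past 1.5-fold was 4.49%, 4.81% and 4.44% with pseudocounts of 0.1, 0.01 and none, and 1.83% with a mean of at least 5 FPKM. By level it was 4.31% at 1 to 10 FPKM, 1.55% at 10 to 100 FPKM and 1.56% from 100 FPKM, and 12.4% of genes passed a log2 difference of 0.322. Of 159 values recomputed in all, 133 did not move by these limits. *LCN2*, the one member past 1.5-fold among the 6 counted, kept its sign in all 7 of its alternatives. These could hardly have changed it, since pseudocounts cannot alter a sign and the scalings moved *LCN2* little against its size. Smaller values did change sign, namely *FTL* with a common sum, *NCOA4* with a common sum without the highest gene, *ACO1* with that and with a common upper quartile, and the median of each of the 6 other lists under at least 1 alternative. The precision of single values is limited by the unknown spread between libraries.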
